A study of Homo sapiens with 4 samples.

Results

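The chaperonins are barrel-shaped protein folding machines, and 10 of their genes are described here, of the 58174 genes in each deposited table. They were taken by symbol, by matching the tables' gene identifiers to GENCODE release 29. The pair HSPD1 and HSPE1 encodes the mitochondrial chaperonin, and TCP1, CCT2, CCT3, CCT4, CCT5, CCT6A, CCT7 and CCT8 encode the 8 subunits of TRiC, the cytosolic chaperonin. RNA-seq was made from 293FT, a human embryonic kidney line with the SV40 large T antigen, in 2 libraries labelled NIPBLmut and 2 labelled NIPBLwt, with no treatment labelled. NIPBL encodes the loader of cohesin onto chromosomes and is the gene most often mutated in Cornelia de Lange syndrome, which the title of the series names beside CHOPS syndrome. The labels give neither the kind of NIPBL mutation nor the number of clones, and they do not say whether replicates were separate cultures, so p-values measure only the spread between these libraries, which may be technical.

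A chaperonin takes an unfolded protein into the cavity of a ring, closes it and releases the protein after ATP is used. In mitochondria the ring is built of HSPD1, also called HSP60, and the lid is a ring of HSPE1, also called HSP10, and imported matrix proteins are folded there. TRiC has a built-in lid, and each of its rings holds a single copy of each of the 8 subunits, which are paralogs of one another. Actin and tubulin are its best known clients, so it serves the cytoskeleton of growing cells. Several chaperonin genes are also targets of the heat shock factors, which bind repeated heat shock elements in promoters.

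HSPD1 and HSPE1 lie back to back on chromosome 2 and share a promoter, so the sequence between them is shown before the values. RefSeq (GRCh38.p14) places the HSPE1 start site on the plus strand at 197500379 and an HSPD1 start site on the minus strand at 197500274, 105 bases apart. A second RefSeq start site of HSPD1 lies at 197499840. Windows of 300 bases, with 250 before and 50 after the start site, were matched by symbol for 9 of the 10 genes, all but CCT6A, 12 windows in all. The HSPE1 window (chr2:197500129-197500428, plus strand) and the window of the second HSPD1 start (chr2:197499791-197500090, minus strand) are printed to show both sides of this promoter. Those of TCP1 (chr6:159789553-159789852, minus strand), CCT4 (chr2:61888607-61888906, minus strand) and CCT8 (chr21:29073599-29073898, minus strand) are printed as TRiC examples that bear on the comparison below. Capitals mark every match to the motifs searched, on either strand: the heat shock pairs TTCNNGAA and GAANNTTC, heat shock triplets (a pair extended by another unit at the same spacing), the E-box CACGTG, the NRF1 motif, the CCAAT box CCAAT and the ETS motif CCGGAAG. Matches to the pairs and triplets can overlap.
HSPE1: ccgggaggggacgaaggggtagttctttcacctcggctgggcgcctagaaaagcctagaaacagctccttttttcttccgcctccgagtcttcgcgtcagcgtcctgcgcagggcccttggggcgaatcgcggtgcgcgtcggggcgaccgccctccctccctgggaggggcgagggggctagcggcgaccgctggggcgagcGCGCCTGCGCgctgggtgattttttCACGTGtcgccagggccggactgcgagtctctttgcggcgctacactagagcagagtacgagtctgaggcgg
HSPD1: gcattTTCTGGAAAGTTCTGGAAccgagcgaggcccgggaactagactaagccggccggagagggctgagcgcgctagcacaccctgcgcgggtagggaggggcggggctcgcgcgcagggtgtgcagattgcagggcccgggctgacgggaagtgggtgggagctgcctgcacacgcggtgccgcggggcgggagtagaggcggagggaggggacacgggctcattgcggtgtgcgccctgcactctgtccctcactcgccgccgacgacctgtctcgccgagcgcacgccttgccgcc
TCP1: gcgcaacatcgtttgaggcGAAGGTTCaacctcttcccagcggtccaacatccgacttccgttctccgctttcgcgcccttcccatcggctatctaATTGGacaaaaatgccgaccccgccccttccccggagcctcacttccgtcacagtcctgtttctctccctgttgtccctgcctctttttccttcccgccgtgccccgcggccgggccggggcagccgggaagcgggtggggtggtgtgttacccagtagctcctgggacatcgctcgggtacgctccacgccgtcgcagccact
CCT4: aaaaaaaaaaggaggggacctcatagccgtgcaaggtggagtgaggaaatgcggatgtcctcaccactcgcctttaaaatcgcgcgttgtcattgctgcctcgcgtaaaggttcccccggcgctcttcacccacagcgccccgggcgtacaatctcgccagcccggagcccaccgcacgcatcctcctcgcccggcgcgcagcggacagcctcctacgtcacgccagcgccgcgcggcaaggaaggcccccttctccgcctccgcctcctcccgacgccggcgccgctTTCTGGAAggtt
CCT8: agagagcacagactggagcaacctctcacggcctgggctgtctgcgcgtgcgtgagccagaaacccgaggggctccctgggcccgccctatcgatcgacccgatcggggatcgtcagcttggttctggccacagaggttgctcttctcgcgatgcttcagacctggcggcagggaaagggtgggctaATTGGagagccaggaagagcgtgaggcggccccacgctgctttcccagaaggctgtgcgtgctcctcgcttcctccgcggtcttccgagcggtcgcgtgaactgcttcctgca

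The HSPE1 window held 1 E-box and 1 NRF1 match, and the overlapping window of the first HSPD1 start held the same sites. CCT3 and CCT5 windows also held NRF1 matches. An E-box was found in 7.26% of the 35116 promoter windows in RefSeq's table and an NRF1 match in 5.78%. The run TTCTGGAAAGTTCTGGAA (chr2:197500068-197500085, minus strand) in the second HSPD1 window joins 4 heat shock units. It ends 294 bases before the HSPE1 start, so the HSPE1 window does not reach it. A run of this form occurred in 9 of the 35116 windows (0.0256%), and a triplet in 0.49%. The longer form was taken from the run itself and was not among the motifs searched, so its rarity is no test. Among the TRiC windows, TCP1 held a GAANNTTC pair, 1 CCT4 window a TTCNNGAA pair and the downstream CCT2 window a GAANNTTC pair, with 6.77% of all windows holding GAANNTTC and 7.74% TTCNNGAA. CCT8, TCP1, CCT2 and CCT3 held a CCAAT box, which 34.6% of all windows hold. The ETS motif, in 10.3% of all windows, was found among the members in 1 CCT2 window. A match describes these letters and is not a measured binding site.

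NIPBL itself had 61.0 and 62.0 CPM (counts scaled to library size with TMM factors) in NIPBLmut, against 41.8 and 44.4 CPM in NIPBLwt (0.51, SE 0.11, edgeR adjusted p = 0.057, DESeq2 adjusted p = 0.047). Its level does not check the labels, since the kind of mutation is not given. The libraries held between 31545743 and 33161120 expected counts, and 1 count was worth 0.0287 to 0.0335 CPM, so every member stood on at least 1481 counts per library. Of 7 markers of this kidney line, LIN28B, KRT8, KRT18, VIM and NEFL were above 50 CPM in every library, PAX2 was under 1 CPM throughout, and NEFM was at 1.33 and 0.83 CPM in NIPBLmut, against 72.8 and 63.9 CPM in NIPBLwt. Markers of other cell types were low in sum: 6 fibroblast markers, with COL1A2 at 0 in all libraries, had 16.1 and 16.7 CPM in NIPBLmut, against 5.87 and 3.85 CPM in NIPBLwt, and 4 blood markers, with CD3E at 0, had 3.37 and 3.33 CPM in NIPBLmut, against 1.42 and 0.90 CPM in NIPBLwt. Endothelial and liver markers summed to less than 1 CPM each in every library. The part of the fibroblast and blood markers in the chaperonin values was not tested, and in bulk RNA fewer cells of a type and less RNA per cell cannot be told apart. The NIPBLwt libraries stood farther apart than the NIPBLmut libraries, with a mean chi-square per gene of 3.99 within NIPBLmut and 46.8 within NIPBLwt, and the values without each NIPBLwt library are given below.

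The comparison of NIPBLmut with NIPBLwt asks which transcripts differ between the genotypes. By edgeR's quasi-likelihood test with Benjamini-Hochberg adjustment over all 18984 tested genes, HSPD1, HSPE1 and 1 TRiC subunit, CCT8, fell in NIPBLmut. All 10 members were tested, and none was called higher. Of all tested genes 2.1% were called lower and 3.71% higher at the same threshold, an adjusted p of 0.05. Among the 1985 tested genes of at least 100 CPM, 5.24% were called lower. DESeq2 called the same 3 genes and also TCP1, CCT2 and CCT6A lower, beside 5.84% of all genes it tested, and it called none of the 10 higher, against 6.44% of those genes. In 6 of the 10 genes both NIPBLmut libraries lay below both NIPBLwt libraries, which held for 30.8% of all tested genes. Those 6 were HSPD1, HSPE1, TCP1, CCT2, CCT6A and CCT8. In none of the 10 did both NIPBLmut libraries lie above both NIPBLwt libraries, as they did for 32.3% of all tested genes.

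HSPD1 (ENSG00000144381, chromosome 2, 197486581 to 197516737, minus strand) had 563 and 475 CPM in the NIPBLmut libraries, against 1032 and 1489 CPM in the NIPBLwt libraries. Both NIPBLmut values were below both NIPBLwt values, and the NIPBLwt pair itself lay wide apart. The mean was 519 ± 62.5 CPM in NIPBLmut and 1260 ± 323 CPM in NIPBLwt (SD, n = 2 each). Its log2 fold change of -1.28 (SE 0.21, edgeR adjusted p = 0.0373) corresponds to 0.412 times the NIPBLwt level. The call was lost without NIPBLmut replicate 2 (-1.16, SE 0.33, adjusted p = 0.0553).

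HSPE1 (ENSG00000115541, chromosome 2, 197499994 to 197503457, plus strand) had 50.1 and 42.5 CPM in NIPBLmut, against 104 and 175 CPM in NIPBLwt. The lid gene thus separated the groups as its ring gene did. In CPM, however, its NIPBLwt libraries were farther apart than NIPBLwt replicate 1 was from either NIPBLmut library, which did not hold for HSPD1. On the log2 CPM scale the NIPBLwt libraries of HSPE1 differed by 0.75, and the NIPBLmut mean stood at -1.17 against NIPBLwt replicate 1. With a log2 fold change of -1.59 (SE 0.27, edgeR adjusted p = 0.0394) HSPE1 had the most negative value of the 10 members, at 0.332 times the NIPBLwt level. The annotated gene HSPE1-MOB4, a read-through from HSPE1 into the next gene, had 8.37 and 8.62 CPM in NIPBLmut and 11.8 and 14.6 CPM in NIPBLwt (-0.63, SE 0.17, edgeR adjusted p = 0.0876). Adding its counts and those of the annotated copies of HSPE1 gave -1.47, still called.

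Both genes have relatives that share reads. Of the words of 50 bases in the GENCODE 29 transcripts of HSPD1, 13.2% also occur in transcripts of other genes, 8.96% in the pseudogene HSPD1P1. For HSPE1 the share was 11.7%, led by HSPE1-MOB4 with 6.85%. The 17 annotated copies of HSPD1 together never held more than 0.752% of the HSPD1 count in a library, and the 26 copies of HSPE1 never more than 3.09% of the HSPE1 count. Among the TRiC genes CCT6A had the most counts in copies, up to 4.41%, and CCT4 and CCT7 shared no word with another gene. How the counting treated strand is not given in the sources used here. HSPE1 and HSPD1 overlap in GENCODE 29 on opposite strands, as do HSPD1 and MOB4, TCP1 and ACAT2, CCT3 and TSACC, and CCT4 and COMMD1. Reads of such pairs may thus not have been told apart. ACAT2 had 89.7 and 76.2 CPM in NIPBLmut, against 117 and 173 CPM in NIPBLwt (-0.80, SE 0.21, edgeR adjusted p = 0.0829). MOB4 had 34.8 and 35.3 CPM in NIPBLmut, against 44.0 and 55.6 CPM in NIPBLwt (-0.51, SE 0.15, adjusted p = 0.0978). TSACC had 0.25 (SE 0.30, adjusted p = 0.611) and COMMD1 0.34 (SE 0.13, adjusted p = 0.158).

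The TRiC subunits differed widely from one another. The median log2 fold change of the 8 subunits was -0.49, with a range from -1.24 for TCP1 to -0.03 for CCT5, beside a median of -0.01 over all tested genes and of -0.19 over the 1985 tested genes of at least 100 CPM. Only CCT8 was called, and 3 of the 8 had an unadjusted p under 0.05, against 13.8% of all tested genes in that direction. Whether TRiC differed from the mitochondrial pair was not tested.

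CCT8, the theta subunit (ENSG00000156261, chromosome 21, 29055805 to 29073797, minus strand), had 286 and 255 CPM in NIPBLmut, against 440 and 598 CPM in NIPBLwt. Its groups did not overlap. CCT8 thus fell by 0.94 on the log2 scale (SE 0.18, edgeR adjusted p = 0.0477). In CPM its NIPBLwt libraries were slightly farther apart than NIPBLwt replicate 1 was from NIPBLmut replicate 1. On the log2 CPM scale its NIPBLwt libraries differed by 0.44, and the NIPBLmut mean stood at -0.70 against NIPBLwt replicate 1. The call was lost without NIPBLmut replicate 1 (-1.03, adjusted p = 0.0914) or replicate 2 (-0.86, adjusted p = 0.218), and with limma-trend on log2(TPM + 1) (-0.69, adjusted p = 0.064). Fits without a NIPBLmut library take their spread from the wide NIPBLwt pair alone, with an SE of 0.33 for CCT8.

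TCP1, the alpha subunit for which the complex was named (ENSG00000120438, chromosome 6, 159778498 to 159789749, minus strand), had 299 and 270 CPM in NIPBLmut, against 502 and 844 CPM in NIPBLwt. The groups did not overlap, but in CPM the NIPBLwt libraries were farther apart than NIPBLwt replicate 1 was from NIPBLmut. On the log2 CPM scale the NIPBLwt libraries of TCP1 differed by 0.75, and the NIPBLmut mean stood at -0.82 against NIPBLwt replicate 1. At -1.24 (SE 0.26) TCP1 just missed the threshold of edgeR (adjusted p = 0.055) and passed that of DESeq2 (adjusted p = 8.69e-06).

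CCT6A, the zeta subunit (chromosome 7, 56051630 to 56063989, plus strand), had 311 and 297 CPM in NIPBLmut, against 418 and 785 CPM in NIPBLwt. CCT2, the beta subunit (chromosome 12, 69585334 to 69601570, plus strand), had 421 and 398 CPM in NIPBLmut, against 470 and 853 CPM in NIPBLwt. In both genes the CPM gap between the NIPBLwt libraries was wider than that between NIPBLwt replicate 1 and either NIPBLmut library. Neither was called by edgeR, at -0.98 (SE 0.30, adjusted p = 0.103) for CCT6A and -0.69 (SE 0.28, adjusted p = 0.175) for CCT2.

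In the other 4 subunits the groups overlapped. CCT3, the gamma subunit (chromosome 1, 156308968 to 156367873, minus strand), had 980 and 906 CPM in NIPBLmut, against 942 and 1299 CPM in NIPBLwt. CCT4, the delta subunit (chromosome 2, 61868089 to 61888804, minus strand), had 697 and 612 CPM in NIPBLmut, against 634 and 970 CPM in NIPBLwt. Both NIPBLmut libraries thus lay close to NIPBLwt replicate 1 in these genes. CCT5, the epsilon subunit (chromosome 5, 10249921 to 10266412, plus strand), had 848 and 760 CPM in NIPBLmut, against 676 and 961 CPM in NIPBLwt. CCT7, the eta subunit (chromosome 2, 73233420 to 73253021, plus strand), had 873 and 763 CPM in NIPBLmut, against 705 and 1005 CPM in NIPBLwt. For CCT5 and CCT7 both NIPBLmut libraries lay between the NIPBLwt libraries. Log2 fold changes were -0.25 (SE 0.18) for CCT3, -0.29 (SE 0.22) for CCT4, -0.03 (SE 0.19) for CCT5 and -0.06 (SE 0.20) for CCT7, with edgeR adjusted p from 0.394 to 0.942. The signs of CCT5 and CCT7 depended on the scaling. With total counts, which move the median of all tested genes to 0.17, CCT5 had 0.16 and CCT7 0.12, and CCT3 and CCT4 had -0.07 and -0.11.

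**Figure D1:**
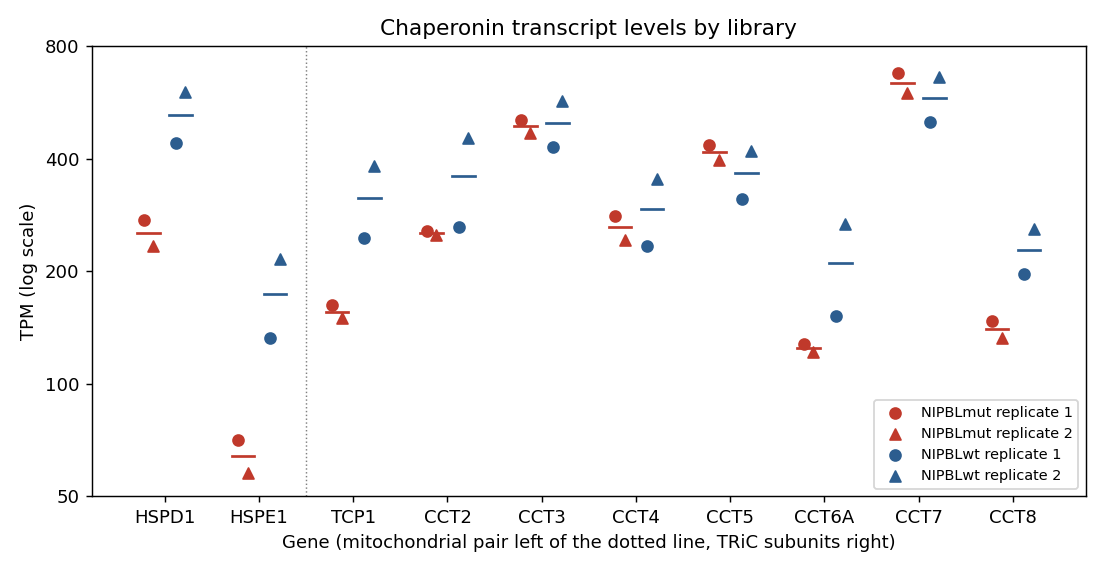
Transcript level in TPM on a log axis for each of the 10 chaperonin genes, with 1 point per library and a bar at the mean of the 2 libraries of a group, NIPBLmut in red and NIPBLwt in blue. HSPD1, HSPE1, TCP1, CCT6A and CCT8 separate the groups clearly, CCT2 narrowly, and the NIPBLwt replicate 2 point is the higher of its pair in every gene.

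Levels between genes were compared in TPM, the deposited abundances per effective length. In NIPBLmut the order was CCT7 at 639 ± 57.2 TPM, CCT3 at 488 ± 25.8 TPM, CCT5 at 415 ± 26.2 TPM, CCT4 at 262 ± 27.1 TPM, HSPD1 at 253 ± 28.3 TPM, CCT2 at 253 ± 3.88 TPM, TCP1 at 156 ± 8.60 TPM, CCT8 at 140 ± 10.6 TPM, CCT6A at 124 ± 4.26 TPM and HSPE1 at 64.2 ± 9.22 TPM (SD, n = 2 each). The libraries of CCT4, HSPD1 and CCT2 overlapped, and no other neighbours in this order did. In NIPBLwt CCT7 was again highest at 581 ± 115 TPM, but HSPD1 came next at 522 ± 116 TPM, and HSPE1 was again lowest at 174 ± 58.3 TPM. In NIPBLwt every gene overlapped the next in the order except CCT3 and CCT5.

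The summed TRiC level was 2593 and 2361 TPM in NIPBLmut, against 2330 and 3367 TPM in NIPBLwt. The NIPBLmut sums thus lay within the range of the NIPBLwt libraries. The shares of 7 of the 8 subunits did not overlap between the groups, and those of CCT4 did. In CPM both NIPBLmut libraries lay below both NIPBLwt libraries for 30.8% of all tested genes and above them for 32.3%. Those percentages are for the levels of single genes and not for shares within a sum, for which no such background was taken. TCP1 made up 6.24% and 6.34% of the summed TRiC level in NIPBLmut, against 10.5% and 11.3% in NIPBLwt. CCT8 made up 5.68% and 5.61% in NIPBLmut, against 8.43% and 7.68% in NIPBLwt. CCT7 made up 26.2% and 25.3% in NIPBLmut, against 21.5% and 19.7% in NIPBLwt, and CCT5 16.7% and 16.8% in NIPBLmut, against 13.4% and 12.4% in NIPBLwt. Shares add to a fixed total, so a lower share of some subunits raises the others. The highest subunit exceeded the lowest 5.33-fold and 4.93-fold in NIPBLmut, against 3.30-fold and 2.56-fold in NIPBLwt.

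**Figure D2:**
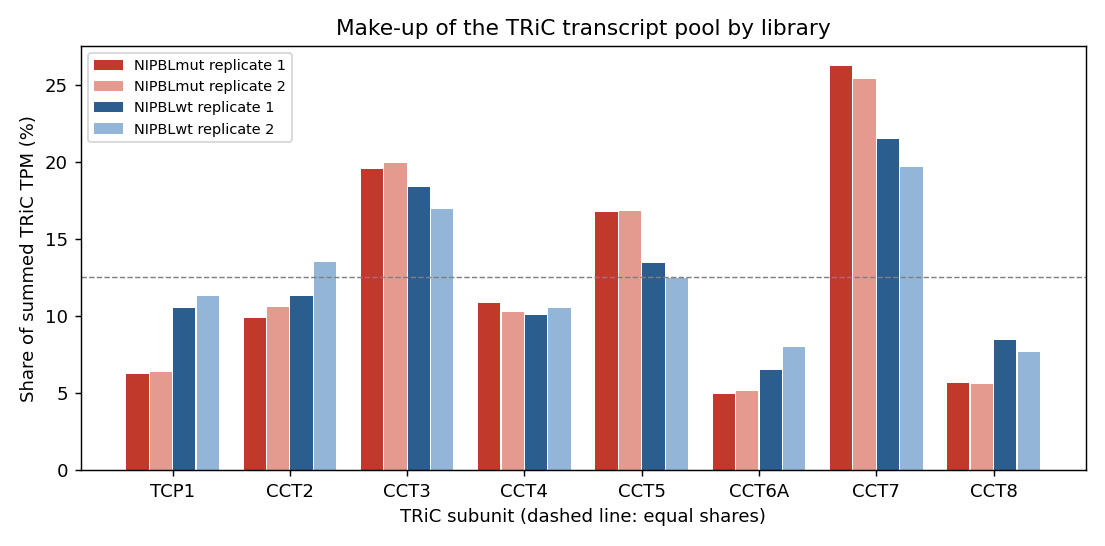
Share of each subunit in the summed TRiC TPM, in percent, with 1 bar per library and a dashed line at equal shares. CCT3, CCT5 and CCT7 have larger shares in both NIPBLmut libraries than in both NIPBLwt libraries, and TCP1, CCT2, CCT6A and CCT8 have smaller ones.

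HSPD1 stood at 0.844 and 0.791 of the mean TRiC level in NIPBLmut, against 1.51 and 1.44 in NIPBLwt, a TPM ratio within each library. The ratio of the lid gene to the ring gene, HSPE1 over HSPD1 in TPM, was 0.259 and 0.247 in NIPBLmut, against 0.301 and 0.356 in NIPBLwt. Both ratios separated the groups, and no test was made on them. For HSPE1 over HSPD1 the NIPBLwt libraries were farther apart than NIPBLwt replicate 1 was from NIPBLmut replicate 1. With the read-through gene and the copies added, the HSPE1 to HSPD1 ratio was 0.289 and 0.284 in NIPBLmut, against 0.324 and 0.375 in NIPBLwt. The effective length of HSPE1 was 616 and 642 bases in NIPBLmut and 612 and 606 bases in NIPBLwt.

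The NIPBLwt libraries differed from each other in these genes. All 10 were higher in NIPBLwt replicate 2 than in replicate 1, by 0.44 (CCT8) to 0.91 (CCT6A) on the log2 CPM scale, while 48.2% of all tested genes were higher in replicate 2. Each of the 10 was higher by more than 1.3-fold, which held for 14.1% of all tested genes. Between the NIPBLmut libraries no member differed by more than 0.25 on that scale. Cytosolic heat shock genes, a list of 19, had a summed level of 3974 and 3615 CPM in NIPBLmut, against 5776 and 13581 CPM in NIPBLwt. In 16 of the 17 tested ones NIPBLwt replicate 2 was the higher, with a median over the 17 of 0.88 on the log2 scale, and HSPB1 had 11.8 CPM in NIPBLwt replicate 1 and 8.33 CPM in replicate 2. The near-identical HSP70 genes HSPA1A and HSPA1B, named with their values known, made up a large part of the gap between the NIPBLwt sums. HSPA1A had 263 and 232 CPM in NIPBLmut, against 732 and 2741 CPM in NIPBLwt, and HSPA1B 323 and 279 CPM in NIPBLmut, against 852 and 2849 CPM in NIPBLwt, though counts may be split between such copies. The part of this heat shock difference in the chaperonin values was not tested.

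Measured against NIPBLwt replicate 1 alone, the NIPBLmut mean stood at -0.99 for HSPD1, -1.17 for HSPE1, -0.82 for TCP1, -0.70 for CCT8, -0.46 for CCT6A and -0.20 for CCT2 on the log2 CPM scale. The same comparison gave 0.002 for CCT3, 0.05 for CCT4, 0.21 for CCT7 and 0.25 for CCT5. Against NIPBLwt replicate 2 alone all 10 genes were lower in NIPBLmut, from -0.26 for CCT5 to -1.92 for HSPE1. The fit without NIPBLwt replicate 2 gave HSPD1 -0.99 and HSPE1 -1.17, and the TRiC median was then -0.10, against -0.83 without replicate 1. Such fits take their spread from the close NIPBLmut pair alone and called many genes: 20.3% lower and 21.6% higher without replicate 2, and 29.9% lower and 29.8% higher without replicate 1.

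**Figure D3:**
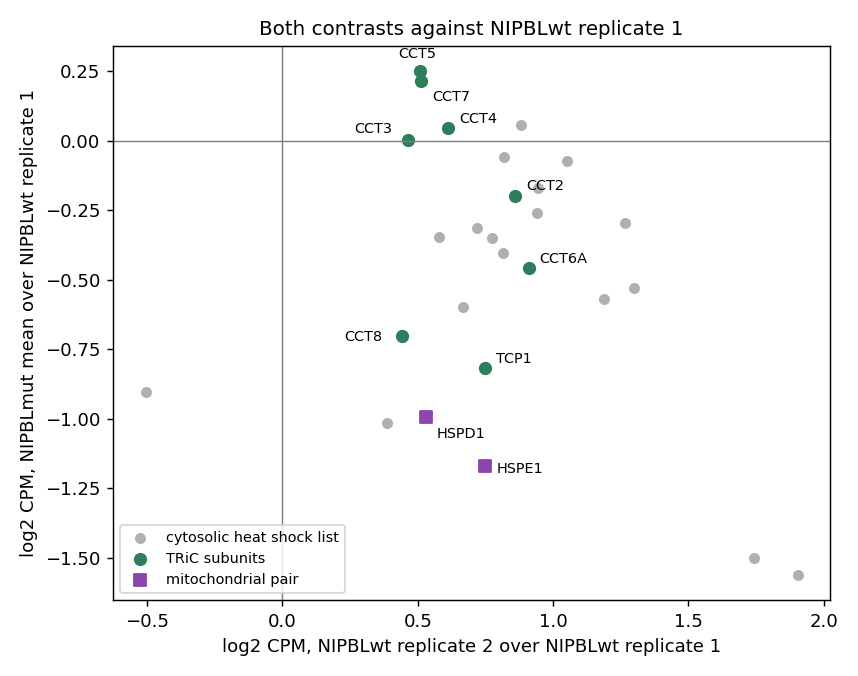
Log2 CPM ratio of NIPBLwt replicate 2 to replicate 1 on the x axis and of the NIPBLmut mean to NIPBLwt replicate 1 on the y axis, 1 point per gene. Both axes share NIPBLwt replicate 1. All 10 chaperonins lie right of 0 on the x axis, and the mitochondrial pair, TCP1 and CCT8 lie at -0.70 or lower on the y axis, while CCT3, CCT4, CCT5 and CCT7 lie at or above 0.

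HSPD1 and HSPE1 sit in a stretch of chromosome 2 where most genes were lower in NIPBLmut. Members and genes overlapping a member were left out of the neighbours. Of the 50 nearest other tested protein-coding genes, 25 on each side over 11.9 Mb, 39 had a negative log2 fold change. Their median was -0.53, against -0.01 over all tested genes, and 13 were called lower, beside 2.1% of all tested genes. The nearest neighbour on one side was COQ10B, a coenzyme Q binding protein of mitochondria, at -0.42 (SE 0.16, edgeR adjusted p = 0.15). Beyond it, SF3B1, a core splicing factor, fell to 443 and 431 CPM in NIPBLmut, against 647 and 798 CPM in NIPBLwt (-0.72, SE 0.14, adjusted p = 0.0493). On the other side, beyond the overlapping MOB4 and HSPE1-MOB4, lay RFTN2 and MARS2, the mitochondrial methionyl-tRNA synthetase. MARS2 had -0.93 (SE 0.25, adjusted p = 0.0863) and RFTN2 0.87 (SE 0.65, adjusted p = 0.417). HSPD1 and HSPE1 had larger negative values than each of these named neighbours.

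When the median deviation of the neighbours in each library was removed as an offset, HSPD1 had -0.79 (SE 0.19, edgeR adjusted p = 0.0952) and HSPE1 -1.10 (SE 0.25, adjusted p = 0.0831). Neither was called, nor was CCT8 at -0.87 (SE 0.16, adjusted p = 0.0551), and fewer genes were called lower in all with this offset (0.774%).

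**Figure D4:**
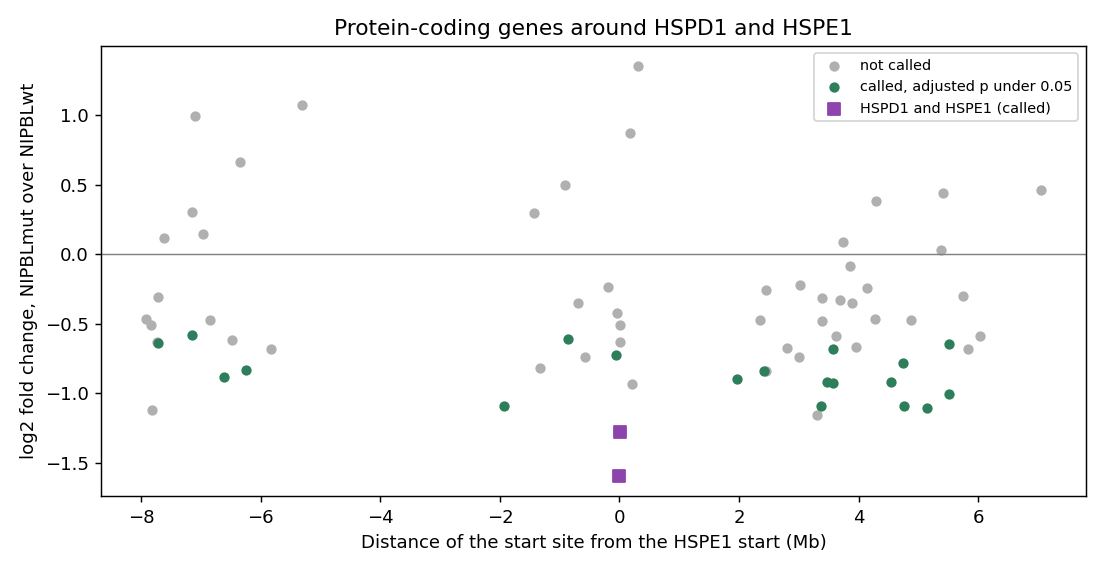
Log2 fold change of NIPBLmut over NIPBLwt for tested protein-coding genes on chromosome 2, by start-site distance from the HSPE1 start in Mb. Only the part of the chromosome from -7.92 to 7.05 Mb is drawn. Called genes are in green, and HSPD1 and HSPE1 are purple squares. Most points in this part lie below 0, and the chaperonin pair lies lowest, at -1.28 and -1.59.

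The neighbourhoods of the TRiC genes were not alike. The median log2 fold change of the 50 neighbours was 0.43 around CCT5, with 10 called higher (3.71% of all tested genes were) and none lower, 0.41 around CCT7, 0.33 around CCT4 and 0.22 around CCT3. It was -0.03 around CCT2, -0.09 around CCT6A and around CCT8, and -0.15 around TCP1. The 4 subunits whose groups overlapped were those with a positive neighbour median, and the 4 that did not overlap had a neighbour median slightly below 0. The 50 neighbours spanned from 4.25 Mb around CCT7 to 32.0 Mb around CCT5. The part of the neighbourhood in the differences between subunits was not tested. All 8 TRiC log2 fold changes lay below the median of their neighbours. With the neighbourhood offset the 8 TRiC values ran from -1.12 for TCP1 to -0.46 for CCT5, with a median of -0.64, and their SD was 0.23, against 0.46 with no offset. None of the 8 was called by edgeR with the offset. All 8 then had an unadjusted p under 0.05, as 11.8% of all tested genes did in that direction.

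**Figure D5:**
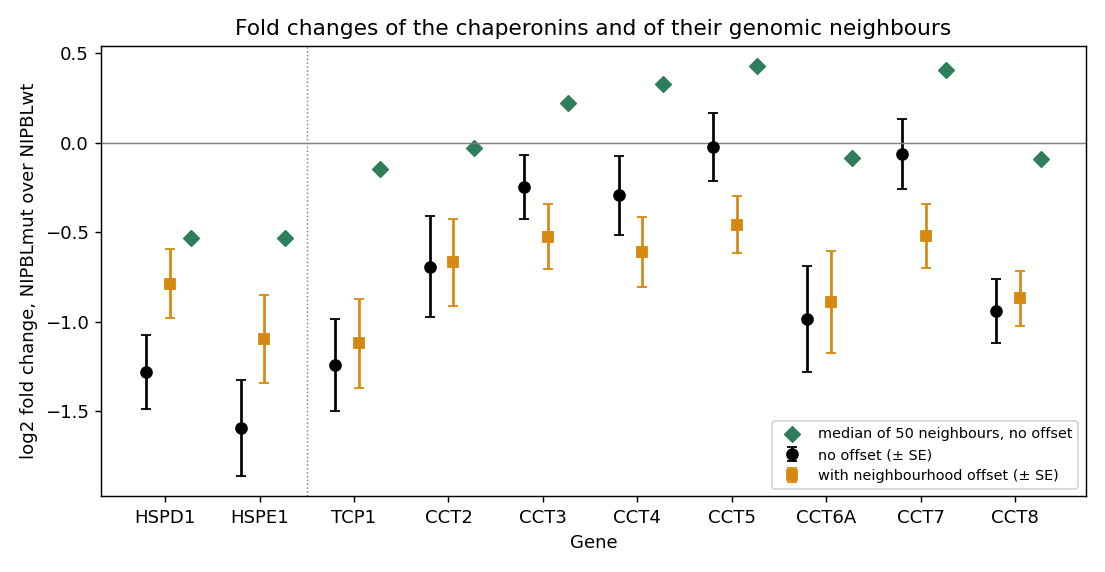
Log2 fold change of NIPBLmut over NIPBLwt for the 10 chaperonin genes with no offset (black circles, ± SE) and with the neighbourhood offset (orange squares, ± SE), beside the median of the 50 neighbours (green diamonds). The neighbour medians run from -0.53 for HSPD1 and HSPE1 to 0.43 for CCT5, and the TRiC values lie closer together with the offset.

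Several TRiC genes start within 1 kb of a gene on the other strand, as HSPD1 and HSPE1 do by their RefSeq starts. PRADC1, whose annotated start lies 182 bases from that of CCT7, rose to 28.3 and 27.8 CPM in NIPBLmut, against 15.3 and 15.5 CPM in NIPBLwt (0.87, SE 0.12, edgeR adjusted p = 0.0296), beside -0.06 for CCT7. FAM173B, 24 bases from CCT5, had -0.34 (SE 0.12, adjusted p = 0.144), and COMMD1, 80 bases from CCT4, had 0.34 (SE 0.13, adjusted p = 0.158). PSPH, the last enzyme of serine synthesis, starts 26 bases from CCT6A and had 0.30 (SE 0.20, adjusted p = 0.36), beside -0.98 for CCT6A. The mitochondrial ribosomal gene MRPL18, 63 bases from TCP1, had -0.39 (SE 0.19, adjusted p = 0.236), beside -1.24 for TCP1. MIR3913-1, a microRNA gene 511 bases from CCT2, had no counts. The differences between members and these partners were not tested.

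Among genes that work beside the chaperonins, edgeR called none in the lists of mitochondrial folding, TRiC cofactor and TRiC client genes. By the same adjusted p it called 2.1% of all tested genes lower and 3.71% higher, so few calls would be found in such short lists. Of all tested genes 13.8% were lower at an unadjusted p under 0.05, and DESeq2 called 5.84% of the genes it tested lower. Of 15 listed mitochondrial folding and protease genes edgeR called none in either direction, with 2 lower and none higher at an unadjusted p under 0.05 and 1 lower by DESeq2, and the median log2 fold change was -0.18. HSPA9, the mitochondrial HSP70, and GRPEL1, its nucleotide exchange factor, are named here with their values already known. GRPEL1 had 52.8 and 47.8 CPM in NIPBLmut, against 71.5 and 113 CPM in NIPBLwt (-0.87, SE 0.23, edgeR adjusted p = 0.0819), and was the gene called by DESeq2 (adjusted p = 0.0034). HSPA9 had 711 CPM in each NIPBLmut library, against 644 and 1003 CPM in NIPBLwt (-0.21, SE 0.22, edgeR adjusted p = 0.556). Of 12 genes for prefoldin and other TRiC cofactors, which hand clients to TRiC or regulate it, none was called by edgeR or DESeq2 and none had an unadjusted p under 0.05, with a median of -0.19. Of 16 TRiC client genes none was called by edgeR, with 4 lower and 1 higher at an unadjusted p under 0.05 and 4 lower by DESeq2, and the median was -0.21. These medians lay near the -0.19 of all tested genes of at least 100 CPM, but many folding and cofactor genes were below that level. Over all tested genes the median was -0.01.

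Of the 17 tested cytosolic heat shock genes 13 were lower at an unadjusted p under 0.05, as 13.8% of all tested genes were, and 10 by DESeq2, as 5.84% were. By adjusted p edgeR called 1 lower (2.1% of all tested genes), HSPA4L, an HSP110 family member. It fell to 69.6 and 66.3 CPM in NIPBLmut, against 137 and 180 CPM in NIPBLwt (-1.22, SE 0.16, edgeR adjusted p = 0.0295). The list median was -0.80, and -0.35 without NIPBLwt replicate 2. In 15 of the 17 both NIPBLmut libraries lay below both NIPBLwt libraries, as in 30.8% of all tested genes. HSF1, the main heat shock factor, had 37.6 and 35.6 CPM in NIPBLmut, against 48.5 and 58.9 CPM in NIPBLwt (-0.55, SE 0.14, edgeR adjusted p = 0.075). HSF2 had 57.6 and 53.2 CPM in NIPBLmut, against 59.5 and 60.8 CPM in NIPBLwt (-0.12, SE 0.11, adjusted p = 0.519). The list of 3 heat shock factors had no call by edgeR, 2 lower at an unadjusted p under 0.05 and 1 lower by DESeq2.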

How the data were processed

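RNA was sequenced from 4 libraries, 2 NIPBLmut and 2 NIPBLwt. Per the labels' protocols, ribosomal RNA was removed and strand-specific libraries were made. The submitters' processing notes name the aligner STAR (2.7.3a), the quantifier RSEM (1.3.1) and the build hg38. The annotation release and the strand setting were not given in the sources used here. The authors deposited, per the file headers, expected counts (RSEM's estimated reads per gene), TPM, FPKM (not used) and lengths.

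From these, 57836 of the 58174 gene identifiers were matched to GENCODE 29 (GRCh38), the source of gene coordinates. Expected counts were rounded, filtered with filterByExpr, scaled by TMM and tested with edgeR 4.0.16 (robust quasi-likelihood, no covariate) in R 4.3.3, adjusted by Benjamini-Hochberg. SE is the log2 fold change over the root of the F statistic. An exact two-sided permutation test of 2 against 2 libraries cannot go below 0.333, so none was run. The mean chi-square per gene between replicates, scaled by total counts, was 3.99 for NIPBLmut and 46.8 for NIPBLwt. It did not use the TMM factors, which were 1.06 in both NIPBLmut libraries, and 0.984 and 0.902 in NIPBLwt. Each library counted as a sample, though this spread does not show that replicates were separate cultures. Counting error only is covered by the depths given. On simulated counts with known changes the test recovered the fold changes, but the share of false calls exceeded the threshold. The simulation gave both groups the same spread per gene, unlike these data. The members called had adjusted p from 0.0373 to 0.0477, close to the threshold.

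The members and lists were chosen with earlier results of these data known, and so was the neighbourhood offset (25 tested protein-coding genes on each side, members and overlapping genes left out). Named besides members were overlapping and head-to-head genes, the nearest neighbours, called list genes, HSF1 and HSF2, and the 4 genes nearest in pattern. TBCE was not matched. Alternatives were other scalings and filters, DESeq2 1.42.0, limma 3.58.1 (voom, and trend on log2(TPM + 1)), length offsets, a replicate block, leaving out each library, the neighbourhood offset, and summed copies.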

Additional observations from a re-analysis of the deposited data

How the results depend on the processing

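HSPD1 and HSPE1 were both called lower under every scaling, filter and tool run, and not with the neighbourhood offset (0 of 2). The count over the pair ran from 1 to 2 when 1 library was left out, HSPD1 being lost without NIPBLmut replicate 2 (-1.16, adjusted p = 0.0553). TRiC subunits called lower numbered 1, and 4 with DESeq2, 3 with the replicate block (4.26% of all genes lower), 2 with upper quartile scaling, no filter or effective length offsets, 0 with limma-trend on TPM or the neighbourhood offset, and 0 to 8 without 1 library. Members called higher numbered 0 in every fit except the one without NIPBLwt replicate 2, so 0 to 2 without 1 library. CCT5 and CCT7 reversed with total counts (0.16 and 0.12), upper quartile scaling (0.068 and 0.029), limma-trend on TPM (0.20 and 0.15, where the median of all genes is 0.12) and without NIPBLmut replicate 2 (0.050 and 0.028). Without 1 library CCT4 ran from -0.58 to 0.043, CCT5 from -0.27 to 0.25 and CCT7 from -0.31 to 0.21, each highest without NIPBLwt replicate 2 and lowest without replicate 1. The cause was not tested. Over all genes 1103 were called, and 2349 with DESeq2, 2279 with the block, 1918 with no filter, 491 with the neighbourhood offset and 399 to 11840 without 1 library. Genes of the other lists called numbered 1, and 20 with DESeq2, 13 with the block, 5 with no filter, 4 with effective length offsets, 3 with limma-trend on TPM and 1 to 70 without 1 library. Same-numbered replicates did not deviate together (correlation -0.06), so the block, which raised the calls, marks only a shared number. Summing copies and the read-through gene changed no member's call. With 2 libraries a group, and a NIPBLwt pair that differs more than the NIPBLmut pair, fits without a NIPBLwt library take their spread from the NIPBLmut pair alone, and fits without a NIPBLmut library from the NIPBLwt pair alone.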

Other observations

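Of the 4 listed factors that respond to mitochondrial or amino acid stress, 3 had positive log2 fold changes. CEBPB had 44.2 and 51.1 CPM in NIPBLmut, against 26.2 and 14.6 CPM in NIPBLwt (log2 fold change 1.22, SE 0.28), DDIT3, which encodes CHOP, 38.3 and 37.3 CPM in NIPBLmut, against 23.5 and 8.40 CPM in NIPBLwt (1.24, SE 0.45), and ATF5 9.35 and 14.3 CPM in NIPBLmut, against 3.71 and 6.06 CPM in NIPBLwt (1.28, SE 0.33). None of these 3 was called by edgeR (adjusted p = 0.0654, 0.142 and 0.0779), each passed an unadjusted 0.05, and by DESeq2 the 3 were called higher, as 6.44% of all genes it tested were. ATF4 had a log2 fold change near 0 (edgeR adjusted p = 0.997). The factors were named after their values were seen. Of 4 tested tubulin cofactors, which take tubulin from TRiC, none was called by edgeR or DESeq2 and 1 was lower at an unadjusted p under 0.05. Of the chaperonin-related genes CCT6B, a testis paralog of CCT6A, had 6.45 and 7.07 CPM in NIPBLmut, against 3.51 and 1.27 CPM in NIPBLwt (1.49, SE 0.46, edgeR adjusted p = 0.108), while edgeR called none of the 4 tested and DESeq2 1 higher.

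Over the 4 libraries the centred log2 CPM profile of HSPD1 lay nearest to those of SFPQ, PTMA, HIST1H1D and LIN28B among 7944 protein-coding genes of at least 20 CPM, with root mean square distances from 0.0361 to 0.0696. They were picked by closeness over these same libraries, so fold changes near that of HSPD1 follow from the choice. All 4 were called lower by edgeR, with log2 fold changes from -1.26 to -1.20. The mean profile of the 8 TRiC subunits lay nearest to TNPO1, FRAT2, EARS2 and PSMC2, at distances from 0.0124 to 0.0179. None of these 4, picked in the same way, was called.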
